A study of Mus musculus with 16 samples.

Results

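The subunits of mitochondrial oxidative phosphorylation were followed in the inner ear of mice that misexpress the miR-183 cluster. Members were the genes whose only symbol in the platform table starts with Nduf, Uqcr, Atp5, Cox4, Cox5, Cox6, Cox7 or Cox8, without the muscle subunits Cox6a2, Cox7a1 and Cox8b. This gave 82 of the 19937 genes that a probeset names alone. They were measured by 106 of the 34760 probesets, and the probeset with the highest mean signal over the 16 arrays stood for a gene. By role, 34 members were subunits of complex I, 7 were complex I assembly factors, 8 belonged to complex III, 13 to complex IV and 17 to ATP synthase, which is also called complex V. The other 3, Ndufa4, its relative Ndufa4l2 and Cox7a2l, were set apart, since NDUFA4 is now placed in complex IV and COX7A2L joins complexes to each other. Ndufb4 and Cox7c were found only on probesets that name several genes, and they were left out with 1 further Ndufs5 probeset.

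The animals were FVB/NCrl mice. Tg mice (Tg1MDW/1MDW, labelled Tg/Tg) were homozygous for a transgene of Mir183, Mir96 and Mir182 driven by the GFAP promoter, in a line from 1 founder, and WT mice were their controls without it. The authors describe the WT controls as littermates. The GFAP promoter is active in glial cells and in supporting cells of the organ of Corti (OC), so the transgene is not restricted to 1 cell type. The P5-OC groups, the microdissected sensory epithelium at postnatal day 5, held 5 Tg and 5 WT arrays. The P18-cochlea groups, the whole cochlea at postnatal day 18 without the vestibular part, held 3 Tg and 3 WT arrays. Groups follow the sample titles, since the tissue, genotype and age fields of most samples contradict them (day 5.5 stands beside P18 titles, for example). The transgene's own probeset sided with the titles: Mir182 read between 7.77 and 8.64 on the 5 P5-OC Tg arrays against 4.25 to 5.46 in WT, and between 7.95 and 7.98 on the 3 P18 Tg arrays against 3.83 to 3.92 in WT. Whether an array held the RNA of 1 animal or of several is not given in the sources used here, so the p-values measure the spread between these arrays.

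As background, the respiratory chain passes electrons from NADH through complex I, or from succinate through complex II, to ubiquinone, on through complex III and cytochrome c, and finally through complex IV to oxygen. The proton gradient built by complexes I, III and IV turns ATP synthase, which makes ATP. Nearly all subunits are encoded in the nucleus and a few in mitochondrial DNA, and assembly factors build the complexes without staying in them. In the cochlea the stria vascularis, which pumps ions into the endolymph, and the hair cells are known for a high demand for ATP.

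Values are log2 signals as deposited, so a difference of 1 is a doubling, and a level of 1 probeset cannot be set against that of another. A member was called when the limma fit over all 34760 probesets gave a Benjamini-Hochberg adjusted p below 0.05. The members were mostly bright: their mean signals over 16 arrays ran from 3.71 to 12.44, with a lower quartile of 8.17, and Cox7b2 alone stayed under 4.54, the lowest of the arrays' own lower quartiles. The P5-OC array of WT replicate 2 stood apart from the other P5 WT arrays. On it the mean level of all members, taken relative to each gene's mean over 16 arrays, was -0.50, against -0.17 to -0.06 on the other 4. The SD of this mean level between arrays was 0.18 in P5 WT and 0.08 in P5 Tg, and 0.02 in each P18 group. The fit used 1 spread per probeset over all 16 arrays, so p-values and intervals at P18 also rest on the P5 spread.

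The largest differences among the members lay between P5-OC and P18-cochlea. In WT, 58 of the 82 members were higher in P18-cochlea and 2 were lower, where 25.0% of all 19937 genes were called higher and 25.1% lower. In Tg, 58 members were higher and 3 lower, where 28.4% of all genes were called higher and 26.8% lower. The median change of the members was 0.56 in WT and 0.60 in Tg, while the median over all probesets was -0.06 and -0.11. The members' median relative to all probesets was therefore 0.62 in WT and 0.72 in Tg. Genes of like brightness (6186 genes at or above the members' lower quartile) were called higher in 28.4% of cases in WT and 37.4% in Tg, with medians of -0.03 and 0.09. The WT and Tg comparisons rest on different arrays and called 52 members higher in both, which is 89.7% of the 58 in WT and 89.7% of the 58 in Tg. Over the 82 members the changes in WT and Tg had a Pearson r of 0.91, as a description across genes that share the same arrays within a genotype. Neither this overlap nor this r is given here over all genes, so they do not set the members apart. Every P18 array lay above every P5 array for 60 members in WT (25.7% of all genes), for 67 in Tg (28.5%) and for 55 over all 6 P18 and 10 P5 arrays (20.6%). A rise of at least 2-fold was called for 10 members in WT (7.22% of genes) and 13 in Tg (8.12%). Tissue and age changed together here, so the dissection of the whole cochlea and the later age cannot be told apart. The level of Y-linked genes also differed between the P5 and P18 arrays, as given with the genotype results. In such bulk samples more cells of a type and more RNA per cell cannot be told apart either.

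**Figure D1:**
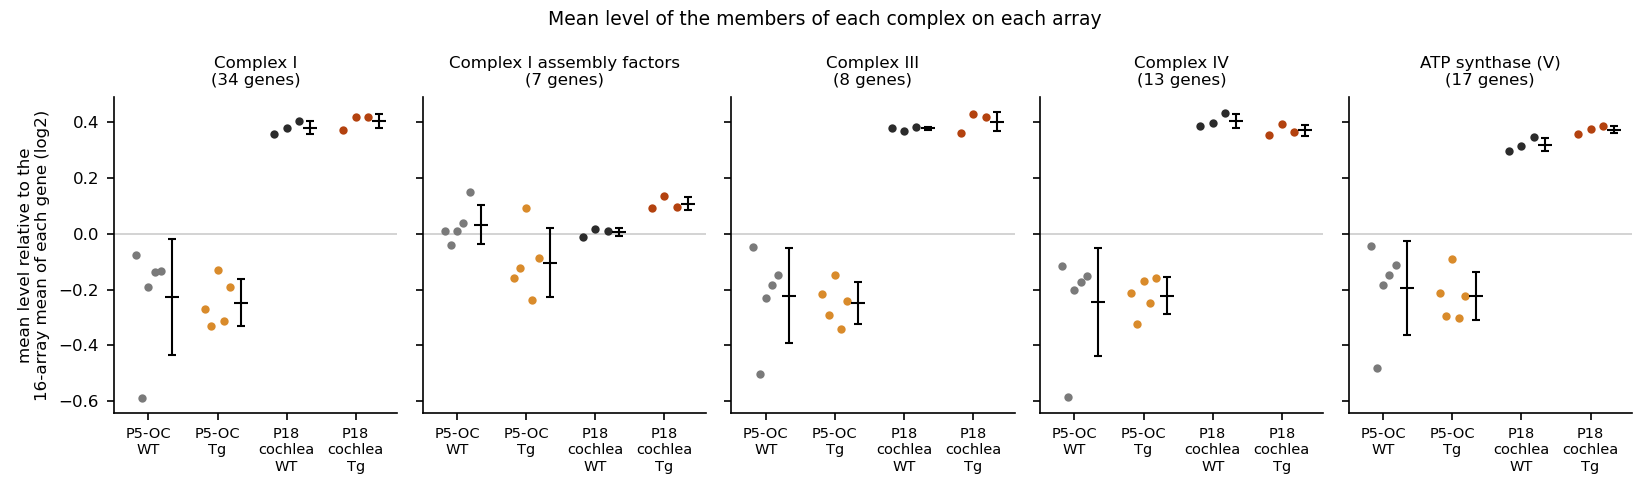
Each point is 1 array, and its height is the mean over the genes of a complex of the log2 signal minus that gene's mean over 16 arrays, with the group mean and SD beside the points. The 6 P18 arrays lie between 0.30 and 0.43 for complexes I, III, IV and V and above all 10 P5 arrays, while the assembly factors lie between -0.24 and 0.15 on all 16 arrays. WT replicate 2 is the lowest P5 array for complexes I, III, IV and V.

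Complex I, the NADH dehydrogenase and the largest complex of the chain, had 27 of 34 subunits higher in P18-cochlea WT and none lower, with a median change of 0.67. In Tg the count was 24 of 34 with none lower and a median of 0.72. Ndufb2, an accessory subunit of the membrane arm, read 6.75, 6.84, 6.45, 6.83 and 6.66 on the 5 P5 WT arrays and 7.85, 7.80 and 7.89 on the 3 P18 WT arrays. The Tg arrays read 6.58, 6.38, 6.87, 6.59 and 6.56 at P5 and 7.91, 7.98 and 7.91 at P18. All 6 P18 values lay above all 10 P5 values. The change was 1.14 ± 0.10 (SE) in WT (adjusted p = 2e-07, limma) and 1.34 ± 0.10 in Tg (adjusted p = 3.5e-08). Ndufb9 rose by 1.12 in WT and 0.97 in Tg, and its WT change was 0.93 without P5 WT replicate 2. Ndufa11, another membrane-arm subunit, rose by 1.04 and 0.98, and its dimmer probeset by 0.84 and 0.62. All 9 Ndufb subunits, which lie in the membrane arm, were higher in both genotypes, with changes from 0.65 to 1.14 in WT. The Ndufs and Ndufv subunits, which make up much of the arm that takes electrons from NADH, were called less uniformly: 5 of 7 Ndufs and 2 of 3 Ndufv members were higher in WT, and 2 of 7 and 2 of 3 in Tg. No test compared these subgroups. The 7 complex I subunits that were not called in WT were Ndufs4, Ndufa8, Ndufc1, Ndufa3, Ndufv3, Ndufa10 and Ndufs5, with changes from -0.07 to 0.31.

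The complex I assembly factors did not follow the subunits in count. These proteins insert subunits and cofactors and leave the finished complex. In WT 1 of the 7 was higher and 2 were lower, with a median change of -0.03, and in Tg 2 were higher and 1 lower, with a median of 0.16. Ndufaf3 rose by 0.70 ± 0.15 in WT (adjusted p = 0.00095, limma) and 0.83 in Tg. Ndufaf1 read 8.03, 8.18, 8.02, 8.03 and 8.17 on the P5 WT arrays and 7.60, 7.78 and 7.77 on the P18 WT arrays, so the groups did not overlap. Its change was -0.37 ± 0.08 in WT (adjusted p = 0.00087, limma) and -0.22 ± 0.08 in Tg (adjusted p = 0.024). After centring each array on its median, Ndufaf1 stood at -0.17 in WT and -0.00 in Tg and was called in neither. Ndufaf5 was -0.36 ± 0.14 in WT (adjusted p = 0.045, limma) and -0.06 in Tg, and under the same centring its value in WT was -0.16, not called, and in Tg 0.16. Ndufaf4, Ndufaf7, Ndufaf2 and Ndufaf6 were not called in WT, with changes from -0.19 to 0.07.

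Complex III, which hands electrons from ubiquinone to cytochrome c, had 7 of 8 members higher in each genotype and none lower, with medians of 0.53 in WT and 0.62 in Tg. Uqcr11, a small subunit, read 8.46, 8.31, 8.45, 8.71 and 8.72 at P5 in WT and 9.85, 9.67 and 9.71 at P18. In Tg it read 8.20, 8.20, 8.73, 8.21 and 8.41 at P5 and 9.65, 9.69 and 9.67 at P18. The lowest P18 array thus lay above the highest P5 array. The change was 1.21 ± 0.12 in WT (adjusted p = 6.6e-07, limma) and 1.32 ± 0.12 in Tg (adjusted p = 2.7e-07). Uqcr10 rose by 0.86 and 0.78, and Uqcrfs1, the Rieske iron-sulfur protein that carries electrons within the complex, by 0.77 and 0.95. Uqcrc2, a core protein of the complex, was 0.09 in WT (not called) and 0.28 in Tg (called).

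Complex IV, cytochrome c oxidase, had 10 of 13 members higher and none lower in WT (median 0.68), and 9 higher and 2 lower in Tg (median 0.57). Cox5a, a nuclear-encoded subunit on the matrix side, had the largest WT change of all 82 members. It read 8.81, 8.45, 8.47, 8.47 and 8.69 on the P5 WT arrays and 9.85, 9.92 and 9.86 on the P18 WT arrays. In Tg it read 8.53, 8.43, 8.49, 8.28 and 8.44 at P5 and 9.69, 9.87 and 9.68 at P18. P18 and P5 did not overlap in either genotype, and the change was 1.30 ± 0.09 in WT (adjusted p = 9.5e-09, limma) and 1.31 ± 0.09 in Tg (adjusted p = 9.1e-09). Cox6b2, named as a testis form of Cox6b, rose by 1.14 in WT and 1.25 in Tg, beside 0.999 and 1.21 for the widely expressed Cox6b1. Cox6a1 rose by 1.13 and 1.04. Its P5 WT arrays read 9.88, 8.71, 9.87, 9.90 and 9.80, with replicate 2 far below the rest, and without that array its WT change was 0.90.

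ATP synthase had 11 of 17 members higher in WT (median 0.51) and 13 of 17 in Tg (median 0.56), with none lower in either. Atp5l, subunit g of the membrane part, read 9.29, 9.16, 8.83, 9.26 and 9.25 at P5 in WT and 10.39, 10.41 and 10.46 at P18. In Tg it read 9.02, 8.81, 9.56, 8.96 and 9.29 at P5 and 10.39, 10.47 and 10.46 at P18. The change was 1.26 ± 0.14 in WT (adjusted p = 1.9e-06, limma) and 1.31 ± 0.14 in Tg (adjusted p = 1.3e-06). Its dimmer probesets changed by 0.52 to 0.99 in WT and by 0.17 to 1.28 in Tg. The dimmest of them (0.52 and 0.17) was called in neither genotype. Atp5mpl, a small membrane subunit, rose by 0.88 and 1.02, and Atp5h, subunit d of the peripheral stalk, by 0.82 and 0.92. The catalytic head changed by less in value. Atp5b, the catalytic beta subunit, was 0.15 in WT (adjusted p = 0.051, limma) and 0.27 in Tg (adjusted p = 0.0013), and Atp5a1, the alpha subunit, was 0.20 (adjusted p = 0.02) and 0.36 (adjusted p = 0.0003). The F1 part, which is the head with its central stalk, also held Atp5c1, Atp5d and Atp5e. Their changes in WT were 0.57, 0.15 and 0.51. Over the 5 F1 members the median change was 0.20 in WT and 0.36 in Tg. The 12 members of the peripheral stalk and membrane part had medians of 0.61 and 0.66, and this difference was not tested.

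Across complexes, the 12 members listed as core subunits (such as Ndufs1, Ndufs3, Ndufv1, the core protein Uqcrc1 and Atp5a1) were higher in 10 cases in each genotype, with medians of 0.56 in WT and 0.60 in Tg, close to the medians of all 82 members. Of the 82 members, 17 had several probesets. All probesets of each of these changed with the same sign in WT, and 6 of the 17 had called and uncalled probesets. These 6 were Atp5g2, Atp5h, Atp5l, Atp5md, Ndufc1 and Uqcrb, and near-identical copies in the genome make such members uncertain, since a probeset of a copy can carry the gene's symbol. The 3 genes for subunit c of ATP synthase code for the same mature protein, and of these Atp5g3 was called higher in WT (0.55), while the brightest probesets of Atp5g1 (0.27) and Atp5g2 (0.29) were not. The other 2 probesets of Atp5g2 were called higher in WT (0.63, adjusted p = 0.0078, and 0.76, adjusted p = 0.00048, limma), so the 3 genes are not told apart by these values.

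**Figure D2:**
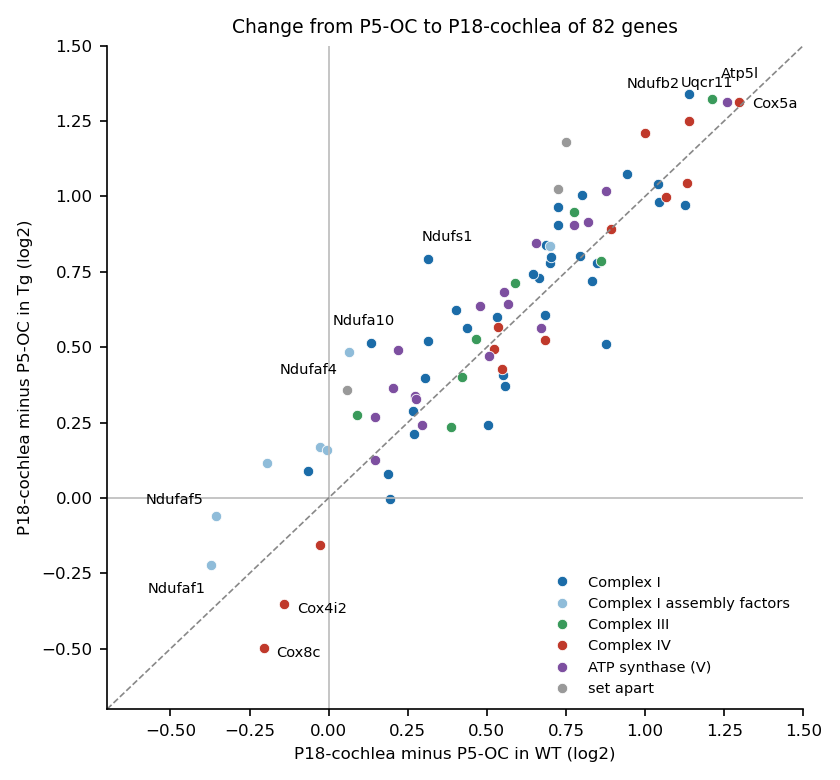
Each point is 1 of the 82 genes, with its log2 change from P5-OC to P18-cochlea in WT on the horizontal axis and in Tg on the vertical axis, coloured by complex, and the dashed line marks equal change. Most points lie to the upper right with Cox5a, Atp5l, Uqcr11 and Ndufb2 farthest out. Ndufaf1, Ndufaf5, Cox4i2, Cox8c and the dim Cox7b2 lie below 0 on both axes.

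Since most members moved together, promoters were read from RefSeq (GRCm38.p6), 250 bases before to 50 after the annotated start, for the 68 members with an entry. The letters searched on both strands were GCGCATGC, the core of the NRF1 site, CCGGAAGT, an ETS site of the kind GABPA binds, AAGATGGC, a YY1 site, and AAGGTCA, a site of nuclear receptors such as ESRRA. NRF1 and GABPA are known regulators of nuclear genes for the respiratory chain. The NRF1 letters were in 11 of 68 promoters (16.2%), against 3.05% of all 27025 genes in the table and 4.29% of the 15562 genes that the array also names. The YY1 letters were in 10 (14.7% against 3.19% and 3.77%), the ETS letters in 5 (7.35% against 4.31% and 6.03%) and the nuclear receptor letters in 6 (8.82% against 5.38% and 4.48%). At least 1 of the first 3 was in 25 members (36.8% against 9.91% and 13.1%). Of the 49 members called higher in WT 17 held at least 1 of these 3, as did 8 of the other 19. Taken singly, the NRF1 letters were in 6 of the 49 and 5 of the 19, the YY1 letters in 7 and 3, and the ETS letters in 5 and 0, and none of these splits was tested. A match is a description of the letters and says nothing of binding. The promoters below are shown for 3 members that rose and 1 that was lower, chosen after the matches were seen. They are printed 5′ to 3′ on the gene's strand with the matched letters in capitals. In Uqcr11 (chr10:80406772-80407071, minus strand) the ETS letters begin at base -66 relative to the start and the reversed NRF1 letters span it. In Cox6a1 (chr5:115348909-115349208, minus strand) the NRF1 letters match on both strands in an overlap that begins at base -162 relative to the start. In Atp5pb (chr3:105959214-105959513, minus strand), subunit b of the peripheral stalk, the reversed YY1 letters span the start. Ndufaf5 (chr2:140170396-140170695, plus strand), lower in WT, also holds the overlapping NRF1 letters, from 16 bases after the start.
Uqcr11: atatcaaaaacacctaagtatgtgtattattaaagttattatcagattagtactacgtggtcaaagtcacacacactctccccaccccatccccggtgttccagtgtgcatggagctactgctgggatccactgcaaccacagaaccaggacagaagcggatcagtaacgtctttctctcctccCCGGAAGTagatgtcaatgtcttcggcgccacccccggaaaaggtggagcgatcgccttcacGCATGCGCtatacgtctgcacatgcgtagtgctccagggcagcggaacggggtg
Cox6a1: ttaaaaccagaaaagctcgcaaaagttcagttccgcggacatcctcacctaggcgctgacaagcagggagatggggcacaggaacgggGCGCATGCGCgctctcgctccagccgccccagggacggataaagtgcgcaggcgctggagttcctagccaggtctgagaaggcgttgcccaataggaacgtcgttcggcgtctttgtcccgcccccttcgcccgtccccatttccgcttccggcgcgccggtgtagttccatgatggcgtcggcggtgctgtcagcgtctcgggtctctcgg
Atp5pb: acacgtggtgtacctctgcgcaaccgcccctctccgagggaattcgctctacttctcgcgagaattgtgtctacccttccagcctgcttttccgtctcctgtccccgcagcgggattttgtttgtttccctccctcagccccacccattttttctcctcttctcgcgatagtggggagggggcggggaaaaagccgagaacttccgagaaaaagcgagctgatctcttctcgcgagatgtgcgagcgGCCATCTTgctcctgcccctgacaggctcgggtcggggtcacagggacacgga
Ndufaf5: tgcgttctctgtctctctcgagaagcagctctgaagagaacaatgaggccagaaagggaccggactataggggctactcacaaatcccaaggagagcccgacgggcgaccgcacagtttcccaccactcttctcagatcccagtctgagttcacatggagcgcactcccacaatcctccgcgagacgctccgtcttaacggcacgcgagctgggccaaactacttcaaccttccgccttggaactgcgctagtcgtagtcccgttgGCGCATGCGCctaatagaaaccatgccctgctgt

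Several subunits of complex IV exist as isoforms from separate genes. Cox4i1, the widely expressed form of subunit 4, read 9.69, 8.96, 9.52, 9.51 and 9.57 at P5 in WT and 10.50, 10.54 and 10.51 at P18. It rose by 1.07 in WT and 0.999 in Tg. Cox4i2, the form known from lung and low oxygen, read 7.40, 7.13, 7.52, 7.32 and 7.40 at P5 in WT and 7.31, 7.11 and 7.23 at P18, so the WT groups overlapped. Its change was -0.14 in WT (adjusted p = 0.19, limma) and -0.35 in Tg (adjusted p = 0.0026), and with centred arrays it was 0.06 and -0.13, called in neither. Cox8a was 0.55 in WT and 0.43 in Tg, called in WT alone, and the testis form Cox8c was -0.20 and -0.50, called in Tg alone and not called there with centred arrays (-0.28). Cox7a2 rose by 0.89 in each genotype and Cox7b by 0.52 and 0.49, while Cox7b2 was too dim to read. Ndufa4 rose by 0.75 in WT and 1.18 in Tg, and Ndufa4l2, known to be induced by low oxygen, was 0.06 in WT and 0.36 in Tg, called in Tg alone. Whether a call in 1 genotype alone marks a difference between the genotypes was tested by the difference of effects, in which none of these members was called.

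The muscle and heart forms of complex IV, which are no members, moved more. Cox8b read 6.07, 6.02, 5.76, 5.98 and 5.79 at P5 in WT and 10.63, 10.46 and 10.48 at P18, a change of 4.60 ± 0.11 in WT and 4.28 ± 0.11 in Tg. Cox7a1 rose by 2.04 and 2.33. Cox6a2 was 0.15 in WT (not called) and 0.70 in Tg (called). On the P18 arrays Cox6a2 read 7.36, 7.52 and 7.44 in Tg against 6.58, 6.46 and 6.49 in WT, a genotype difference of 0.93 ± 0.15 (adjusted p = 0.0061, limma). It was the only gene among these 3 forms and the 82 members to be called between genotypes at P18. Cox8b and Cox7a1 differed by 0.04 and 0.35 between genotypes at P18 and were not called. None of the 3 forms was called in the difference of effects (smallest adjusted p = 0.22, limma). Skeletal muscle markers moved with Cox6a2: their mean level over 22 genes was 8.03 to 8.12 on the P18 Tg arrays, 6.12 to 6.15 on the P18 WT arrays and 5.79 to 6.08 at P5, and 20 of the 22 were called higher in P18 Tg. None of the 22 lay below the arrays' lower quartile in any group. The part of muscle tissue in these values was not tested.

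**Figure D3:**
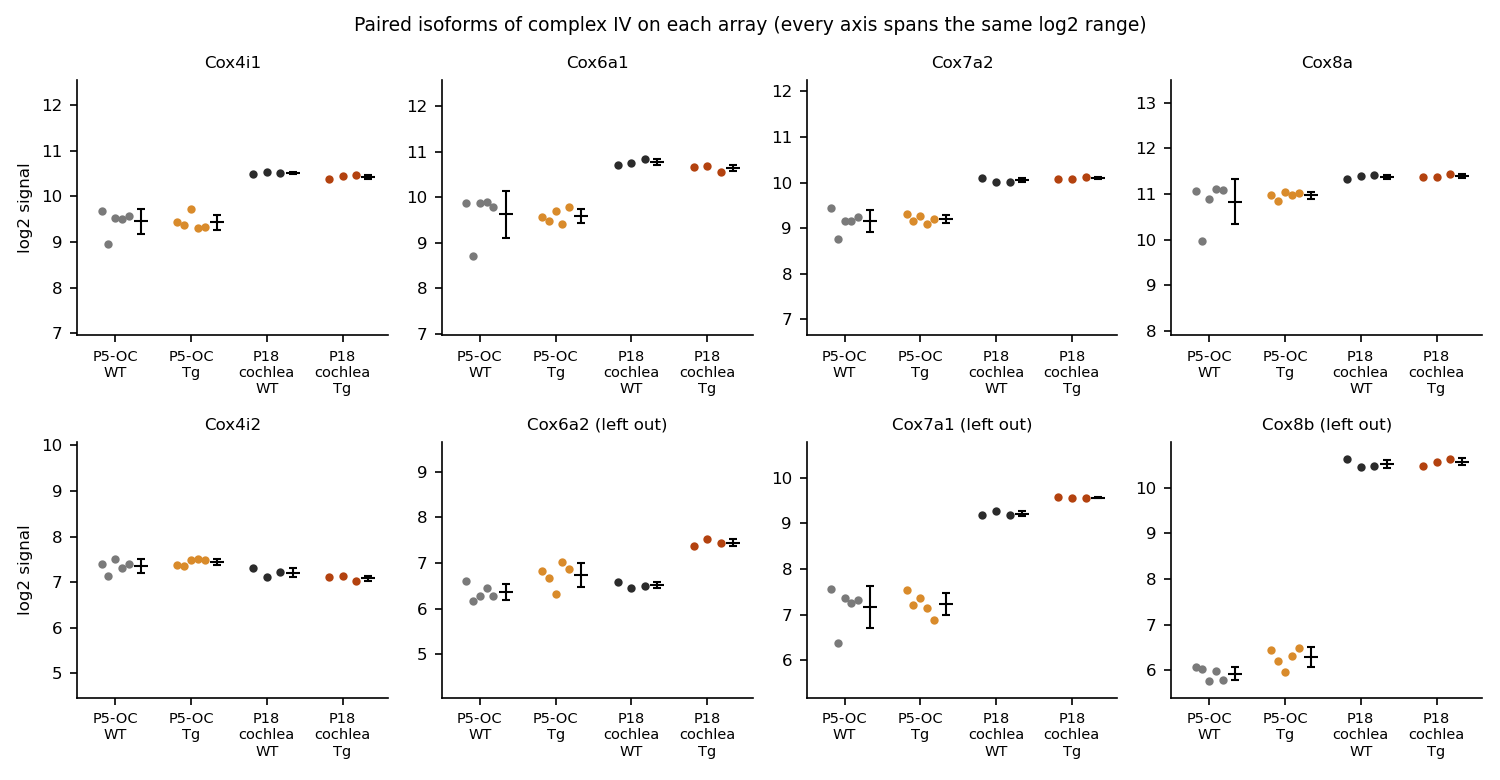
Log2 signals on each of the 16 arrays of 4 widely expressed subunits of complex IV (top) and of their paired isoforms (bottom), with the group mean and SD beside the points. Every axis spans the same log2 range, and levels cannot be compared between panels. Cox8b shows the largest step from P5 to P18 in both genotypes, and the P18 Tg arrays of Cox6a2 (7.36 to 7.52) lie above its P18 WT arrays (6.46 to 6.58).

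Between genotypes no member was called. At P5 0 of the 82 passed the adjusted threshold, where 0.610% of all 34760 probesets did, and at P18 again 0, where 0.443% did. In the difference of the genotype effect between P18 and P5 the count was also 0, with 0.596% of all probesets called. Without adjustment 8 members had a p below 0.05 at P5, 2 at P18 and 4 in the difference, which is 9.76%, 2.44% and 4.88% of the members beside 17.6%, 10.1% and 16.6% of all genes. The median Tg minus WT difference of the members was -0.04 at P5 and 0.04 at P18, and the single differences ran from -0.31 to 0.29 and from -0.15 to 0.24. The median over the 6186 genes of like brightness was -0.08 at P5 and 0.04 at P18. In the difference between ages the median was 0.09 for the members and 0.12 for these genes. The members' P5 median moved with single arrays, to -0.12 with 12 positive members without WT replicate 2 and to -0.0067 with 40 positive members without WT replicate 1, against 29 positive with all arrays. The sexes were also unevenly spread at P5: the mean over Uty, Eif2s3y and Kdm5d, all on the Y chromosome, was 8.61 to 8.96 on 4 of the 5 WT arrays and 3.95 on the other, and 3.90 to 4.06 on 4 of the 5 Tg arrays and 8.86 on the other. On the P18 arrays it was 7.65 to 7.66 in Tg and 7.22 to 7.34 in WT, between the high and the low P5 levels. What these levels say of sex or of pooled animals was not tested. With the Y-linked mean as a covariate the P5 median was -0.11 with 17 positive members, and again 0 members were called. In the age comparisons this covariate left 57 members higher and 1 lower in WT, and 59 and 2 in Tg. The 95% intervals of the main fit hold for 1 gene at a time and do not cover the uneven sexes. They lay within 1.5-fold either way for 80 of 82 members at P5 and for 79 at P18, and within 2-fold for all 82 at both ages. The difference of effects was bounded less tightly. There the interval lay within 1.5-fold for 54 members and within 2-fold for 81, with bounds from -1.01 to 0.88. At P5 the Tg arrays lay wholly below the WT arrays for 1 member (1.79% of genes) and wholly above for 0 (0.396%). At P18, with 3 arrays against 3, they lay wholly above for 19 (18.1% of genes) and wholly below for 5 (15.9%).

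The smallest p at P5 was that of Ndufs1, the largest core subunit of complex I, which carries iron-sulfur clusters. It read 8.80, 9.12, 8.85, 8.88 and 8.91 in P5 WT and 8.64, 8.68, 8.75, 8.40 and 8.53 in P5 Tg, and it was the 1 member whose groups did not overlap. The difference was -0.31 ± 0.08 (adjusted p = 0.1, limma), with a 95% interval from -0.48 to -0.14. Ndufv1, which binds NADH, was -0.19, Cox7a2l -0.28 and Ndufaf6 -0.23, with adjusted p between 0.22 and 0.23. Tg replicate 3 lay above the other P5 Tg arrays for each of these 4 genes. Without that array, 5 members were called lower in P5 Tg, namely Ndufs1, Ndufv1, Cox7a2l, Ndufaf6 and Ndufa10. The share of all probesets called in that refit is not given here, so the 5 do not set the members apart. The dimmer probeset of Cox7a2l differed by -0.09 at P5 with all arrays (adjusted p = 0.69, limma). Probesets of 1 gene could also differ in sign at P5, as those of Atp5g2 did (0.08, 0.27 and -0.38), none of them called. All 7 assembly factors were negative at P5, from -0.23 to -0.06, and positive at P18, from 0.02 to 0.24, none of them called. Over all 19937 genes the median difference was -0.03 at P5 and -0.02 at P18. Of the 6186 genes at or above the members' lower quartile, 4818 were negative at P5 and 3762 positive at P18. Of 15 TCA cycle genes, 15 were negative at P5 and 13 positive at P18, and of 24 assembly factors outside the naming rule 20 and 18. Complex IV went the other way, with 8 of 13 positive at P5 and 7 negative at P18. The signs are thus not particular to the 7 assembly factors.

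At P18 the smallest p belonged to Ndufaf4, an assembly factor, which read 7.59, 7.70 and 7.60 in Tg and 7.48, 7.26 and 7.43 in WT. Its groups did not overlap, and the difference was 0.24 ± 0.11 (adjusted p = 0.54, limma). Ndufa10 read 10.34, 10.43 and 10.41 in Tg and 10.15, 10.16 and 10.18 in WT, a difference of 0.23 ± 0.11 (adjusted p = 0.56). Ndufc2 was 0.21 and Ndufs1 0.17 higher in value in Tg, with adjusted p of 0.69 and 0.72. In the difference between ages Ndufs1 had 0.48 ± 0.13 (adjusted p = 0.13), Ndufaf4 0.42, Ndufa10 0.38 and Ndufaf6 0.31, none of them called. By complex, the medians of the P18 differences were 0.03 for complex I, 0.08 for the assembly factors, 0.04 for complex III, -0.07 for complex IV and 0.06 for ATP synthase. The P5 and P18 comparisons rest on different arrays.

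**Figure D4:**
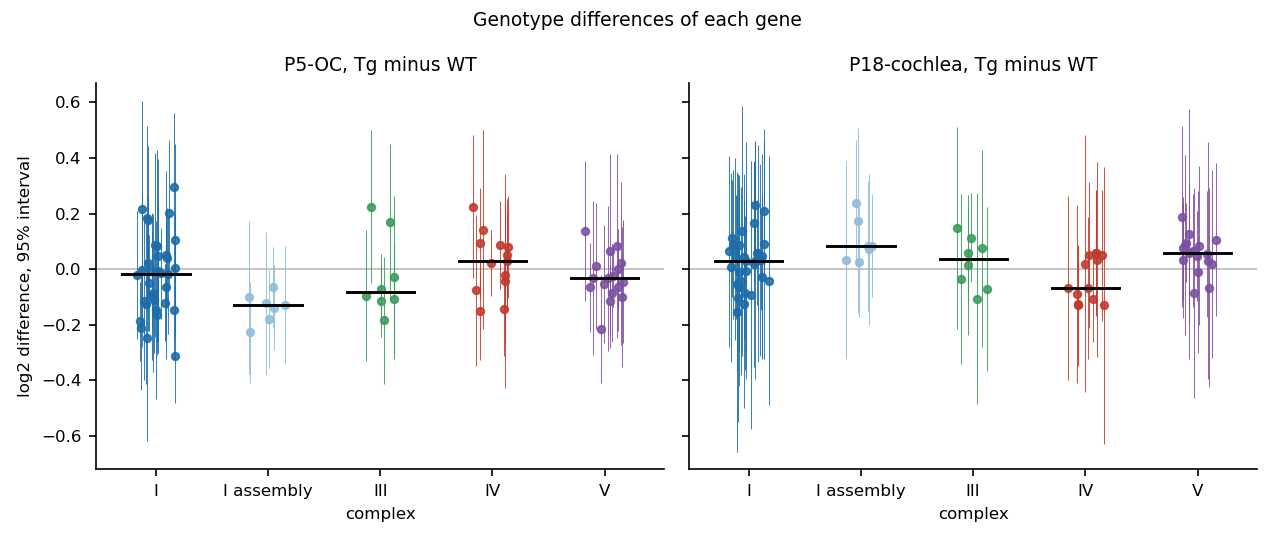
Tg minus WT differences (log2) of the genes of each complex in P5-OC (left) and P18-cochlea (right), where points are genes, thin lines are 95% intervals and black bars are medians. All medians lie between -0.13 and 0.08, and no gene was called at either age.

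Other genes of energy metabolism, from lists chosen with the members, were read the same way. All 4 genes of complex II were higher in P18-cochlea in both genotypes, from 0.39 to 0.96 in WT, and Sdhb, its iron-sulfur subunit, rose by 0.96 and 1.21. Of cytochrome c and c1, Cyc1 rose by 0.87 and 0.90 and somatic Cycs by 0.59 and 0.78, while the testis form Cyct was -0.08 and -0.14, not called. The TCA cycle, which feeds NADH and succinate into the chain, had 11 of 15 genes higher in WT and 12 in Tg, with none lower and medians of 0.42 and 0.58. Glycolysis had 10 of 14 higher in WT and 11 in Tg, with none lower and medians of 0.46 and 0.60. The mitochondrial ribosome had 49 of 77 genes higher and 1 lower in WT (median 0.34), whereas the cytosolic ribosome had 7 of 55 higher and 6 lower (median 0.04). Of 2 mitochondrially encoded subunits on the array, ND3 was 0.25 in WT (called) and 0.21 in Tg (not called), and the other was called in neither.

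Assembly factors outside the naming rule had 8 of 24 higher and 4 lower in WT, and 10 higher and 2 lower in Tg, with medians of 0.05 and 0.13. The copper chaperone Cox17 rose by 0.77 and 0.96, and Ttc19, a complex III factor, fell by 0.72 in WT and 0.46 in Tg. Among carriers, the pore and the ATP synthase inhibitor 4 of 8 were higher in each genotype, with Vdac1 at 0.56 and 0.70. Uncoupling proteins and alternative routes had 3 of 9 higher and 1 lower in each, and Slc25a27, a brain-type carrier of the uncoupling family, fell by 1.31 in WT. Regulators of mitochondrial biogenesis had 7 of 17 higher and 2 lower in WT, and 11 higher and 2 lower in Tg. Ppargc1a, the coactivator PGC-1alpha, read 8.93, 8.42, 8.59, 8.93 and 9.06 at P5 and 9.58, 9.56 and 9.49 at P18 in WT, and rose by 0.76 in WT and 1.31 in Tg. Its partner Esrra rose by 0.83 and 0.85, Nrf1 by 0.33 and 0.36, and Esrrb, which is also a marker of the stria vascularis, by 3.70 and 3.06. Tfam, which packages and transcribes mitochondrial DNA, was 0.09 in WT and 0.47 in Tg, called in Tg alone, and Polg2, the accessory subunit of the mitochondrial DNA polymerase, fell by 1.005 and 1.09. Between genotypes, of all these lists, Twnk, the mitochondrial helicase, was called at P5 (-0.38, adjusted p = 0.017, limma), and Cox6a2 at P18. In the difference of effects no regulator was called, Ppargc1a and Tfam included (smallest adjusted p = 0.15, limma).

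Markers of cell types changed beside the members between P5-OC and P18-cochlea. Stria vascularis markers were higher in 9 of 10 cases in WT and 10 in Tg, with mean levels of 7.05 to 7.97 on P5 arrays and 9.42 to 9.57 on P18 arrays. Bone and cartilage markers were higher in 8 of 9 in each genotype (8.17 to 8.98 at P5, 10.09 to 10.25 at P18). Both measured red blood cell markers were higher (6.90 to 8.26 at P5, 11.71 to 11.97 at P18), as were all 7 cell cycle genes (7.18 to 7.86 and 9.60 to 9.93). Neuronal markers were higher in 6 of 10 and lower in 2 in each. Hair cell markers were lower in 10 of 14 and supporting cell markers in 8 of 12 in each genotype. In WT muscle markers were higher in 13 of 22 and lower in 2, granule and Purkinje markers higher in 5 of 10 and lower in 1, and Schwann cell markers lower in 4 of 7. In Tg these counts were 21 and 0 of 22 for muscle, 2 and 6 of 10 for granule and Purkinje markers, and 7 of 7 Schwann cell markers were higher. Brown fat and heart markers were higher in 3 of 8 in each genotype, with 1 lower in Tg. Of all these markers Gabra6, Neurod1 and Elovl3 were below the arrays' lower quartile in at least 1 group, and the hair cell markers of the labelled tissue were all above it. The part of each cell type in the members' rise was not tested. Between genotypes Schwann cell markers were lower in 7 of 7 in P5 Tg, and granule and Purkinje markers were lower in 5 of 10 in P18 Tg, at ages where no member was called.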

How the data were processed

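RNA of 16 samples was hybridised to Affymetrix MoGene arrays. The deposited values are log2 signals per probeset, which the authors had already normalized. Background correction, normalization and probe summary are not given in the sources used here, and per the labels limma was used for the tests. Precision is limited by the number of arrays, 5 per genotype at P5 and 3 at P18.

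All 34760 probesets were fitted with 4 group means over the 16 arrays in limma 3.58.1 (R 4.3.3; lmFit, contrasts.fit and eBayes, two-sided, 12 residual and 3.23 prior degrees of freedom). P-values were adjusted by Benjamini-Hochberg within a contrast, with a threshold of 0.05 and no fold limit. The script was tested on simulated data. Genes were named from the platform table, and 21640 probesets name 1 gene. The text names, per complex, up to 3 members called in each direction in WT between ages and, per genotype contrast, the 4 with the smallest p where fewer than 4 were called, beside isoform families and core subunits. Up to 3 called genes per direction were named of a pathway list. The members and lists were chosen with earlier results of these data known, and Ndufa4l2 was set apart, and Nrf1 and Tfam named, after the values were seen. Alternatives covered the pairing, arrays, dim probesets, scaling, variance model, covariates and thresholds.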

Additional observations from a re-analysis of the deposited data

Results flagged for a closer look

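Among 56 sets of 5 P5 arrays examined, 7 held 1 array far from the other 4. The sets share arrays and genes, so the 7 are not separate observations. Most of the 7 came from WT replicate 2 at P5. The mean level of complex I was -0.59 on it, against -0.19 to -0.08 on the other P5 WT arrays. For complex IV it was -0.58 against -0.20 to -0.11, and for all 82 members -0.50 against -0.17 to -0.06. Among named genes, Cox6a1 read 8.71 on it against 9.80 to 9.90, Ndufb9 8.73 against 9.62 to 9.89, and Ndufc2 10.95 against 11.33 to 11.36. In P5 Tg, Ndufa10 read 10.21 on replicate 3 against 9.74 to 9.84 on the other 4 arrays.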

How the results depend on the processing

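Without P5 WT replicate 2, 57 members were higher and 3 lower in the WT age comparison, 56 of the 57 being among the 58, and the median fell to 0.46. Leaving out each array in turn gave 52 to 62 members called in either direction in the WT age comparison (60 with all arrays), 58 to 70 in Tg (61 with all arrays), 0 to 5 at P5, 0 at P18 and 0 to 1 in the difference of effects, with the 5 at P5 and the 1 (Ndufa10) coming without P5 Tg replicate 3. Centring arrays on their medians moved the median change of all probesets from -0.06 to 0.13 in WT and from -0.11 to 0.11 in Tg and gave 73 members higher and 0 lower in WT (median 0.75) and 74 and 0 in Tg (0.83). Quantile normalization gave 58 and 1, and 60 and 2. Leaving out single arrays moved the median genotype difference between -0.12 and -0.0067 at P5. A fold limit of 1.5 left 39 members in WT. Array weights called 1 member at P5 (Ndufs1), 2 at P18 and 4 in the difference, and leaving out the dimmest 50% of probesets called 1 at P5. The shares of all probesets called under these alternative settings are not given here. Ndufaf5 in Tg turned to 0.16 with centring, 0.23 with quantile normalization and 0.017 without P5 Tg replicate 3, the leave-one-out range being -0.13 to 0.017.

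With the muscle marker level as a covariate, 3 members were called lower at P18, and 1 higher and 3 lower in the difference. In the Tg age comparison only 2 members stayed called higher, against 58 without it, and 2 were called lower (Ndufa12 and Uqcrb). There 28 of the 58 turned negative, and the median was -0.12 against 0.60 without it. Among the named genes, Ndufaf4 (-0.91 at P18, -0.69 in the difference) and Ndufc2 (-0.33 at P18) changed sign. In the Tg age comparison Ndufb9 (-2.63), Uqcr10 (-2.09), Cox6a1 (-1.71), Atp5mpl (-0.73), Atp5h (-0.14), Ndufaf1 (0.79) and Ndufaf5 (2.87) did so too. None of these named genes was called. In P18 Tg this covariate nearly coincides with the group, its range there being 8.03 to 8.12 against 6.12 to 6.15 in WT. In the WT age comparison this covariate left 42 members higher, 41 of them among the 58, and 1 lower (Cox8c), with a median of 0.48, and neither Ndufaf1 nor Ndufaf5 was called. The cause was not tested. Of isoforms not called in WT, Cox8c turned to 0.06 with quantile normalization and Cox4i2 to 0.06 with centring.

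Deviations of equally numbered arrays correlated between -0.22 and 0.36 at P5 and between 0.00 and 0.07 at P18. With so few arrays these values cannot decide whether the replicate numbers pair the samples, and the main fit left pairing out. With the replicate block 58 members were higher and 1 lower in WT, 63 and 3 in Tg, and 0 between genotypes. The fit on the compared arrays alone was not run for the difference. Array number, 3 per genotype at P18, limits the smallest detectable change.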
